A study of Sus scrofa with 32 samples.

Results

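The genes described are 6 receptors for antibody and complement listed by symbol, FCRLA, FCRL3, FCER2, FCGR3A, FCER1A and CR2, of 25880 genes in the feature table. They were measured in 48629 cells from 8 single-cell libraries of pig ileum and blood. An entry was found for 5 of the 6. FCRLA (ENSSSCG00000030246), FCRL3 (ENSSSCG00000006457), FCER2 (ENSSSCG00000040377) and FCER1A (ENSSSCG00000006413) carried their symbol, and FCGR3A stood as the identifier ENSSSCG00000036618, whose name came from the study's own name table. Its values therefore rest on that table, and whether related Fc receptor genes share reads with this identifier was not tested. CR2 was not analysed here. In Sscrofa11.1, RefSeq places the genes of these symbols on chromosome 4 from 88846054 to 88855310 for FCRLA, from 88948357 to 88956513 for FCGR3A and from 91118867 to 91125448 for FCER1A, and on chromosome 2 from 71454046 to 71468149 for FCER2. FCRL3 had no RefSeq record under that symbol.

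Fc receptors bind the constant part of antibodies and so couple antibodies to cells. FCGR3A encodes CD16, a low-affinity IgG receptor known on natural killer cells and monocytes, and FCER1A encodes the IgE-binding chain of the high-affinity IgE receptor, which mast cells carry together with MS4A2 and FCER1G. FCER2 encodes CD23, the low-affinity IgE receptor known on mature B cells, and CR2 encodes the complement receptor CD21 of B cells. FCRLA and FCRL3 are Fc receptor-like genes of B cells. FCRLA codes for a protein that stays inside the cell, and FCRL3 for a surface protein with tyrosine-based signalling motifs.

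Cells came from 2 mixed-breed pigs of 7 weeks, a female labelled pig 1 and a male labelled pig 2, with no other treatment given. Distal ileum of each pig gave 3 samples, one rich in Peyer's patches (PP), one free of them (non-PP) and one cut across both (whole ileum), all without the outer muscle layer. The epithelial and digested fractions were combined and enriched for live cells by density and by removal of dead cells. Peripheral blood mononuclear cells (PBMC) of the same pigs gave the other 2 libraries, without tissue digestion, so tissue and cell preparation cannot be told apart in any comparison of ileum with blood. Each library held 21134542 to 40111934 transcripts counted by unique molecular identifier (UMI), and 3776 to 7704 cells passed the study's thresholds on UMIs, genes and mitochondrial share. Median UMIs per cell ran from 2577.5 to 3583.5, and any pair of libraries shared 21 to 80 cell barcodes.

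One library stood against its label. The whole ileum library labelled pig 1 held UMIs of 5 Y-linked genes at 207 CPM (UMIs of the genes scaled to 1000000 UMIs of the library), while the other 3 libraries of the female held 0 to 0.224 CPM and the 4 libraries of the male 119 to 226 CPM. Values of pig 1 in ileum are therefore also given without this library where a call depends on it. The 2 labelled pigs are the replicates, with n = 2 per class in the main fits. Main ileal sums of pig 1 include this library and so mix cells of a male with those of the female. The 2 ileal sums of a class are then 2 labels and may not be 2 separate animals. It gave 354 of the 508 natural killer-like cells of ileal pig 1. P-values that use these sums take the labels as given.

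Cells were sorted into classes by UMI sums of marker genes, none of them among the genes described. Ileum held 7124 cycling, 4669 germinal center and 803 resting B cells, 374 antibody-secreting cells, 823 CD4 T, 2548 CD8B T, 3180 CD2+ γδ T, 884 CD2- γδ T, 1461 natural killer-like, 190 group 3 innate-like, 110 dendritic-like, 100 macrophage-like, 46 mast-like, 32 monocyte-like and 506 epithelial-like cells. Blood held 1208 resting B, 1259 natural killer-like, 1563 monocyte-like, 573 CD4 T, 1083 CD8B T, 430 CD2+ γδ T, 632 CD2- γδ T and 48 dendritic-like cells. Of the genes that mark mast cells, HDC reached 1003 to 1523 CPM and GATA2 817 to 1005 CPM in mast-like cells, and both were at most 4.0 CPM in the other ileal classes, which the gates in part set. Resting B cells sat closest to their cut, with 21% at the least number of UMIs allowed, and dendritic-like cells had 17.7% there. T cells with no or mixed subset markers (9029) and cells in no class (6589) entered no comparison.

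Levels are given as CPM, here the UMIs of a gene scaled to 1000000 UMIs of all cells of a class in a pig. Classes were compared with edgeR's quasi-likelihood test on UMIs summed per pig and class, and a difference counts as called where p, adjusted over all genes tested by Benjamini-Hochberg, was below 0.05. The log2 differences carry edgeR's scaling between sums and so can depart from the ratio of the CPM values. Where a pig was left out, the groups compared had no replicate, and the spread came from the other classes. Calls kept or lost there are no test of replicates. The alternative with sums per library entered the dissections of a pig as separate replicates with no pig term. Calls gained in it do not rest on more animals. Free RNA was read from barcodes of 10 to 100 UMIs, which held 693 CPM of FCGR3A in the ileum. Epithelial-like cells held 12.8 CPM of it, 1.85% of that level. The same share was 1.93% for FCRLA, 0.817% for FCRL3 and 1.37% for FCER1A, and no FCER2 UMI was seen in the 506 epithelial-like cells, which allows up to 0.593% of cells with a UMI. These shares do not give the background of other classes. Epithelial-like cells were deeper, at a median of 9489.5 UMIs against 2161 in ileal resting B cells. Non-PP gave 204 and 46 of them in pig 1 and pig 2. Free RNA there held 2.57 and 3.27 CPM of FCRLA, against 51.1 to 109 CPM in the other ileal libraries.

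**Figure D1:**
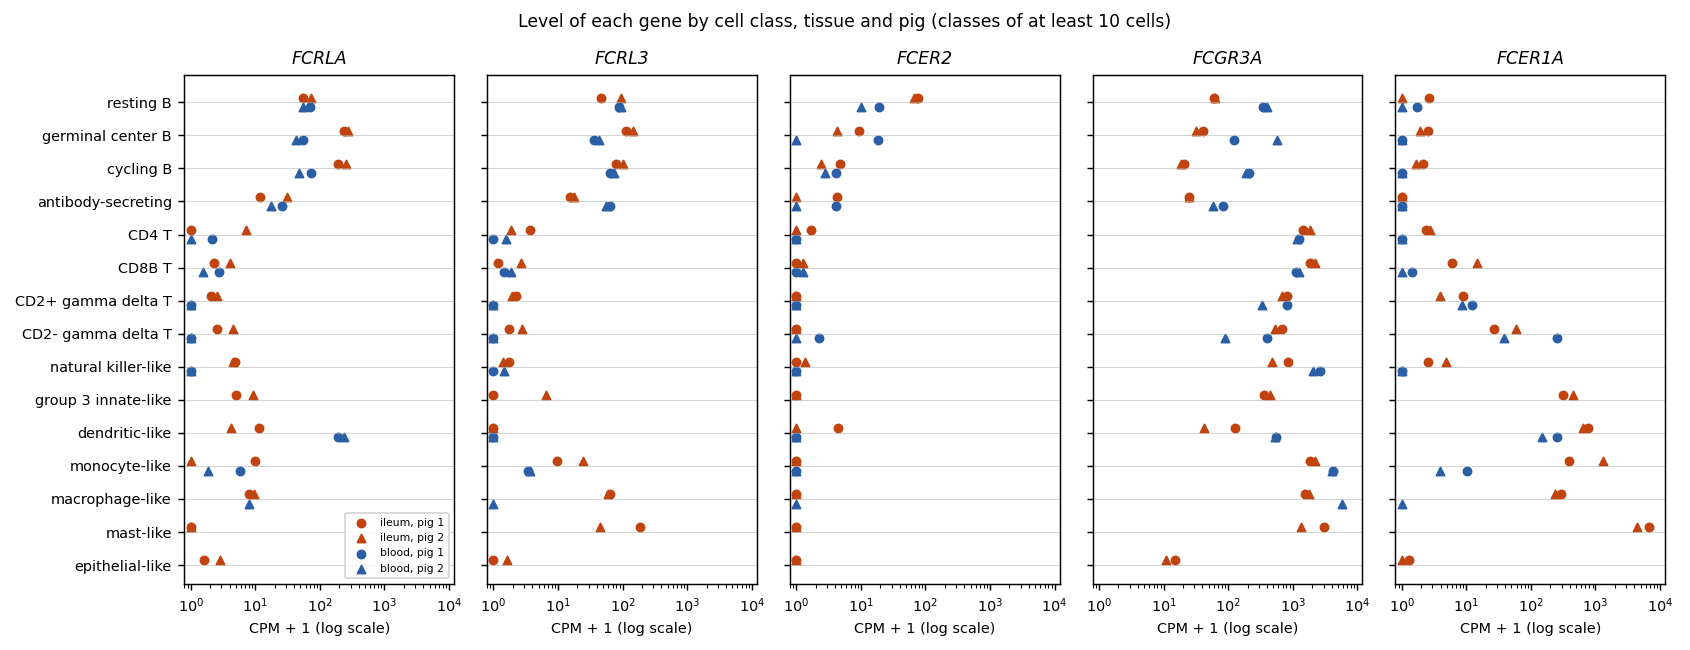
Level of each gene (CPM + 1, log scale) in each class of at least 10 cells, with ileum in red, blood in blue, circles for pig 1 and triangles for pig 2. FCRLA, FCRL3 and FCER2 are highest in B lineage classes, with exceptions for FCRLA in blood dendritic-like cells and FCRL3 in ileal macrophage-like and mast-like cells, while FCGR3A spans T, natural killer-like and myeloid classes and FCER1A peaks in mast-like cells.

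FCRLA and FCER2 ran in opposite directions between resting and germinal center B cells of the ileum. Germinal center B cells proliferate and mutate their antibody genes inside follicles, and resting B cells recirculate. FCRLA stood at 52.9 and 72.6 CPM in resting cells of pig 1 and pig 2 and at 233 and 275 CPM in germinal center cells. The groups did not overlap, and FCRLA was lower in resting cells by edgeR (log2 difference -1.84, SE 0.37, adjusted p = 4.5e-04). FCER2 stood at 76.9 and 65.9 CPM in resting cells and at 8.4 and 3.3 CPM in germinal center cells. FCER2 was the higher in resting cells, by 3.84 on the log2 scale (SE 0.56, adjusted p = 1.9e-05). In this comparison 17.1% of all genes tested were called, and 2 of the 5 genes described were. FCRLA missed the threshold with pig 1 left out, and FCER2 did with DESeq2 (log2 difference 3.88, adjusted p = 0.57).

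FCRL3 lay at 44.7 and 92.7 CPM in resting and at 114 and 143 CPM in germinal center cells, and it did not pass the test (log2 difference -0.74, SE 0.29, adjusted p = 0.087). Pairing the pigs as a replicate block brought it past the threshold (adjusted p = 0.019), as did sums per library (adjusted p = 0.039) and leaving out whole ileum (adjusted p = 0.010). The groups did not overlap, but the 2 resting values differed by more than their gap to the germinal center values. FCGR3A was at 60.4 and 62.5 CPM in resting and at 39.2 and 30.4 CPM in germinal center cells (adjusted p = 0.14), all far under its levels in T, natural killer-like and macrophage-like cells. It was called with no low-count filter (adjusted p = 5.2e-04) and with only the groups compared (adjusted p = 0.0024). FCER1A gave 2 UMIs in resting and 13 in germinal center cells.

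The same order held within libraries. FCRLA in germinal center cells was at 216 and 267 CPM in PP of pig 1 and pig 2 and at 263 and 280 CPM in the libraries labelled whole ileum of pig 1 and pig 2. In resting cells of these libraries it was at 48.2, 58.8, 63.4 and 89.5 CPM, so each library showed the difference. FCER2 in resting cells was at 76.1 and 87.2 CPM in PP and at 80.4 and 39.8 CPM in whole ileum of pig 1 and pig 2, where the last stood lowest. Non-PP tissue held 5 resting B cells in pig 1 and none in pig 2 and gave no value for this state.

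**Figure D2:**
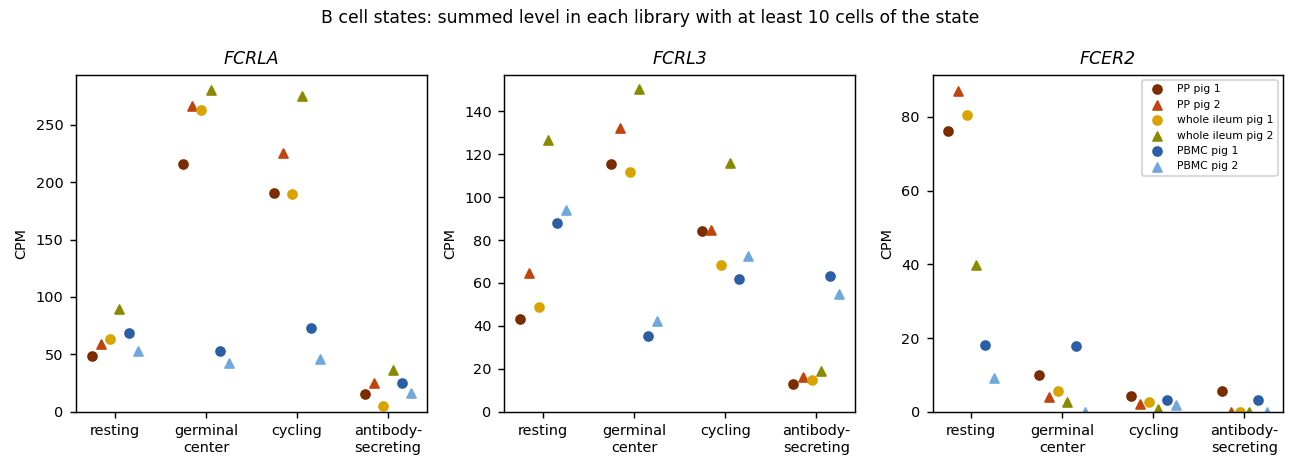
CPM of FCRLA, FCRL3 and FCER2 in 4 B lineage states, 1 point per library with at least 10 cells of the state, circles for pig 1 and triangles for pig 2. Ileal germinal center and cycling cells lie above resting cells for FCRLA in the PP and whole ileum libraries, which hold enough cells of these states, and resting cells of the ileum lie above those of blood for FCER2.

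The share of cells with a UMI followed the levels. FCRLA was detected in 42.5% of germinal center cells (95% exact binomial interval 41.1 to 43.9%) and in 12.7% of resting cells (10.5 to 15.2%), at median depths of 2172 and 2161 UMIs. After each cell was thinned to the least number of UMIs kept the shares were 28.4% and 6.48%. FCER2 was detected in 15.2% of resting cells (12.8 to 17.9%) and in 1.14% of germinal center cells (0.851 to 1.48%), or 9.96% and 0.600% after thinning. These intervals cover counting error only. In 506 epithelial-like cells of 9489.5 median UMIs, the share with FCRLA was 0.988%.

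In ileal resting B cells 20 of 803 cells held both FCRLA and FCRL3, 13 held FCRLA and FCER2, and 14 held FCRL3 and FCER2. FCER2 was found in 12.7% of the cells with FCRLA and in 15.5% of those without, although the first were deeper, with a median of 3133.5 against 2113 UMIs. At this depth most cells that carry a transcript of a gene give no UMI, so separate populations cannot be read from these counts.

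Cycling B cells, which carry proliferation genes such as TOP2A, were not told apart from germinal center cells in these receptors. FCRLA was at 191 and 251 CPM, FCRL3 at 79.1 and 101 CPM, FCER2 at 3.8 and 1.5 CPM and FCGR3A at 20.1 and 17.7 CPM in cycling cells of pig 1 and pig 2. None of the 5 genes was called by edgeR between the 2 classes, with adjusted p from 0.24 (FCER2) to 0.88 (FCER1A), where 9.40% of all genes were. With the pigs as a replicate block 1763 genes in place of 999 were called, still with none of the 5. For FCRLA the log2 difference was -0.18 with an SE of 0.32, and for FCRL3 -0.50 with an SE of 0.26, so moderate differences cannot be told from none. Summed per library, with dissections of a pig counted as replicates, FCRL3 (-0.66, adjusted p = 0.015) and FCER2 (-1.19, adjusted p = 0.038) passed the threshold. The values of FCRL3 and of FCGR3A did not overlap between the classes, and how many of all genes did not overlap was not counted. FCGR3A (log2 difference -0.86, adjusted p = 0.25) was called with no low-count filter (adjusted p = 0.0018) and with only the groups compared (adjusted p = 0.020).

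Antibody-secreting cells, the plasma cell lineage, were lower in FCRL3 and FCER2 than resting B cells. FCRL3 was at 14.3 and 16.7 CPM in antibody-secreting cells, under both resting values (log2 difference -1.34, SE 0.37, adjusted p = 0.0071). FCER2 had 4 UMIs, all in pig 1, in 374 cells, and was lower by 4.93 on the log2 scale (SE 0.80, adjusted p = 4.2e-05), a call that DESeq2 did not make (adjusted p = 0.42). Without pig 2, FCRL3 was lower by 0.96 and not called. FCRLA at 10.9 and 29.5 CPM also lay under its resting values, but the test did not call it (log2 difference -0.77, SE 0.43, adjusted p = 0.23). Here 22.2% of all genes were called, and 2 of the 5 genes described.

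Resting B cells of ileum and blood differed in FCER2. Blood resting cells held 18.1 and 9.1 CPM in pig 1 and pig 2, against the 76.9 and 65.9 CPM of ileum, and the test called FCER2 higher in ileum (log2 difference 2.45, SE 0.54, adjusted p = 0.0027). The call was lost with either pig left out, and DESeq2 gave a log2 difference of 2.53 with an adjusted p of 0.76. The share of cells with a UMI was 15.2% in ileum and 5.13% in blood (3.96 to 6.53%), although the blood cells were deeper, at a median of 3525 UMIs. FCRLA at 68.2 and 53.1 CPM and FCRL3 at 88.1 and 94.2 CPM in blood overlapped with their ileal values (adjusted p = 0.94 and 0.52). The call rate over all genes was 12.0%.

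FCGR3A was called lower in ileal than in blood resting B cells, at 60.4 and 62.5 CPM against 344 and 400 CPM (log2 difference -2.53, SE 0.47, adjusted p = 1.5e-04). Free RNA held 541 to 858 CPM of FCGR3A in the ileal libraries, and 1633 and 1378 CPM in blood of pig 1 and pig 2. The B cell values lie well under the 2047 to 4224 CPM of blood natural killer-like and monocyte-like cells, and the part of free RNA in the difference was not tested.

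The B lineage also carried other receptors of the list of 42 partners and relatives, 34 of which were in the feature table and 31 tested. Between resting and germinal center cells 4 were higher and 5 lower in resting cells, where 17.1% of all genes were called. The median log2 difference of the list was 0.22 against -0.04 over all genes. FCMR, the IgM receptor, was higher in resting cells at 134 and 154 CPM against 45.5 and 63.8 CPM (log2 difference 1.58, SE 0.42, adjusted p = 0.0067), as were FCGRT, the neonatal Fc receptor chain that carries IgG (1.42, SE 0.21), and CD81, a tetraspanin of the cell surface (0.94, SE 0.21). CD247 and BLNK, which pass on receptor signals, were among those lower, by 2.76 and 1.04 on the log2 scale. FCRL1 and FCRL4, further Fc receptor-like genes, were lower in antibody-secreting than in resting cells by 3.06 (SE 0.46) and, on 1 against 28 UMIs, by 4.44 (SE 1.29), together with CD72, an inhibitory receptor, by 3.20 (SE 0.50). In that comparison none of the list was higher and 14 were lower, and its median was -0.84 against -0.01 over all genes. Of all genes 22.2% were called there, 1107 higher and 1255 lower.

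Between cycling and germinal center cells none of the list was higher and 4 were lower, where 9.40% of all genes were called. Among those lower were FCRL1 by 0.94 (SE 0.26), BLK, a B cell kinase, by 0.74 (SE 0.24) and FCGRT by 0.71 (SE 0.20) on the log2 scale. The list median was -0.49 against -0.06 over all genes. Between ileal and blood resting cells 3 were higher and 3 lower in ileum, where 12.0% of all genes were called. Medians were 0.02 for the list and 0 for all genes. CD247, the CD3 zeta signalling chain (log2 difference 1.93, SE 0.39), and LAT2, an adaptor (0.74, SE 0.23), were among those higher in ileum. The kinase SYK and the phosphatase PTPN6 were among those lower, by 1.13 (SE 0.36) and 1.26 (SE 0.21).

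FCRLA and FCRL3 did not always share a class. Blood dendritic-like cells held 828 and 556 CPM of TCF4, and 1167 and 1349 CPM of IRF8, a marker of their gate. They held 191 and 237 CPM of FCRLA in pig 1 and pig 2 and no FCRL3 UMI among 48 cells. These levels were above those of blood resting B cells in each pig, while CD79A, a B cell receptor chain, was at 0 and 4.6 CPM there, where the gate allowed at most 1 UMI of B lineage markers per cell. FCRLA made 70 of the 70 UMIs of the pair in that class, but 40.4% (36.8 to 44.1%) in blood resting B cells. In ileal dendritic-like cells FCRLA was at 10.3 and 3.2 CPM, on 4 UMIs, beside 1.01 CPM in epithelial-like cells.

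The reverse held in the ileum for macrophage-like and mast-like cells. FCRL3 was at 63.2 and 59.1 CPM in macrophage-like cells, within the range of resting B cells, and at 187 and 43.0 CPM in mast-like cells, which rest on 13 and 3 UMIs. FCRLA gave 4 UMIs against 32 of FCRL3 in macrophage-like and 0 against 16 in mast-like cells, whereas germinal center cells had 2867 against 1454. The share of FCRLA in the UMIs of the pair was 11% (3.11 to 26.1%) in macrophage-like cells against 66.4% (64.9 to 67.8%) in germinal center and 48.5% (42.3 to 54.7%) in resting cells. CD79A was at 3.5 and 4.2 CPM in macrophage-like cells. Blood monocyte-like cells held 2.4 and 2.7 CPM of FCRL3, and the difference from ileal macrophage-like cells was called (log2 difference 4.34, SE 0.52, adjusted p = 1.6e-07).

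Ileal dendritic-like cells gave no FCRL3 UMI in 598863 UMIs of the class, so that FCRL3 was at least 12.2-fold lower there than in macrophage-like cells, taking 3 counts over the whole class as the floor (adjusted p = 1.8e-04). Mast-like and macrophage-like cells did not differ in FCRL3 by the test (log2 difference 0.32, SE 0.56, adjusted p = 0.84).

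FCGR3A had the widest distribution of these genes. Blood monocyte-like cells were highest of the classes with at least 10 cells in each pig, at 4224 and 4069 CPM in pig 1 and pig 2, followed by blood natural killer-like cells at 2683 and 2047 CPM. Blood T cells came next, CD4 T cells at 1266 and 1170 CPM and CD8B T cells at 1136 and 1256 CPM, which did not separate from each other. Blood γδ T cells spread between the pigs, CD2+ cells at 806 and 330 CPM and CD2- cells at 399 and 90.1 CPM.

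In ileum the order was different. Mast-like cells held 3059 and 1333 CPM, monocyte-like cells 1883 and 2251 CPM, CD8B T cells 1829 and 2229 CPM, macrophage-like cells 1570 and 1774 CPM and CD4 T cells 1427 and 1836 CPM, and these 5 ranges overlapped or adjoined. CD2+ γδ T cells at 820 and 679 CPM, CD2- γδ T cells at 673 and 524 CPM, natural killer-like cells at 838 and 470 CPM and group 3 innate-like cells at 360 and 445 CPM lay lower. Dendritic-like cells at 128 and 42.1 CPM, B lineage classes at 17.7 to 62.5 CPM and epithelial-like cells at 14.2 and 9.8 CPM closed the order. The levels in CD4 and CD8B T cells overlapped or exceeded those in macrophage-like cells, so that in these libraries the identifier was not limited to natural killer and myeloid classes.

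Natural killer-like cells were lower in FCGR3A in ileum than in blood. The 6 ileal libraries held 1374 (PP pig 1), 930 (PP pig 2), 1754 (non-PP pig 1), 361 (non-PP pig 2), 524 (whole ileum pig 1) and 702 CPM (whole ileum pig 2), and each was under both blood libraries. Over pigs the log2 difference was -1.95 (SE 0.43, adjusted p = 0.0011), where 16.7% of all genes were called. The ileal sums rest mostly on 2 libraries, with 686 of the 1461 cells in non-PP pig 2 and 354 in the library labelled whole ileum pig 1. Without the latter, pig 1 rose from 838 to 1662 CPM and the difference was -1.21 (SE 0.52, adjusted p = 0.15), which no longer passed. Without pig 2 the difference was -1.80 and not called. The share of cells with a UMI was 38.7% (36.2 to 41.2%) in ileum and 95.9% (94.6 to 96.9%) in blood at median depths of 2477 and 2447 UMIs, against 10.7% in the deeper epithelial-like cells.

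**Figure D3:**
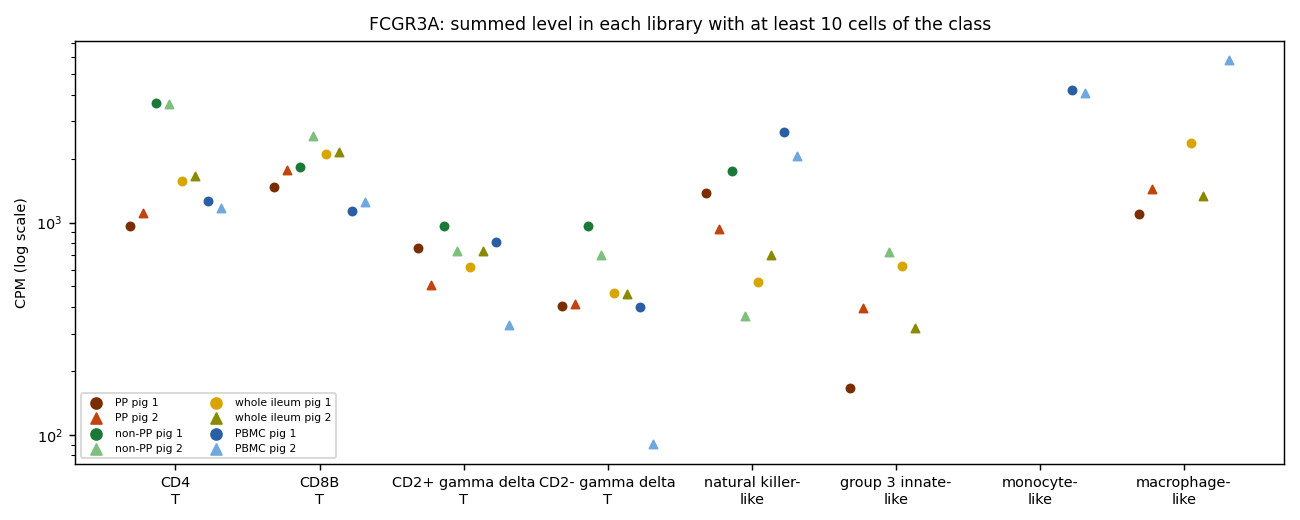
FCGR3A (CPM, log scale) in T, innate and myeloid classes, 1 point per library with at least 10 cells of the class, circles for pig 1 and triangles for pig 2. Blood natural killer-like cells lie above the ileal ones in every library, and ileal CD4 T cells are highest in the 2 non-PP libraries.

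Against CD4 T cells the summed values turned direction between tissues, in pig 1 only with the library labelled whole ileum pig 1 included. The gate of natural killer-like cells excluded CD3E but did not limit CD3D or CD3G. Over both tissues the class held a median of 4 UMIs of the CD3 genes, and whether it includes T cells was not tested. In ileum natural killer-like cells were lower than CD4 T cells (log2 difference -1.37, SE 0.42, adjusted p = 0.021), and this held in 5 of the 6 libraries. In PP pig 1 the order was opposite, at 1374 against 967 CPM. Summed without the library labelled whole ileum pig 1, natural killer-like cells of pig 1 also lay above its CD4 T cells, as in blood. Without the library labelled whole ileum pig 1 the difference was -0.60 (SE 0.52, adjusted p = 0.55), and without pig 2 it was -0.80 and not called. DESeq2 gave -1.27 with an adjusted p of 0.058. The ileal sums pool dissections in unlike shares. Natural killer-like cells of pig 1 and pig 2 numbered 34 and 122 in PP and 120 and 686 in non-PP. CD4 T cells numbered 224 and 174 in PP and 45 and 82 in non-PP. The part of this mix in the difference was not tested. In blood natural killer-like cells were above CD4 T cells in each pig, but the test did not call this (0.98, SE 0.42, adjusted p = 0.16). It was called with no low-count filter (adjusted p = 4.0e-04) and with only the groups compared (adjusted p = 0.010). In these comparisons 16.5% of genes were called in ileum and 9.28% in blood.

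The difference between the tissues was tested itself, a comparison added after the values were seen. The log2 difference of natural killer-like minus CD4 T cells was lower in ileum than in blood by 2.34 (SE 0.60, adjusted p = 0.020), where 3.40% of all genes were called. Without the library labelled whole ileum pig 1 it was -1.56 (adjusted p = 0.41), and the call was lost with either pig left out.

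CD4 T cells of the ileum differed among dissections. They held 3638 and 3625 CPM of FCGR3A in non-PP of pig 1 and pig 2, 967 and 1105 CPM in PP, and 1569 and 1659 CPM in whole ileum. The 2 pigs were close in PP and in non-PP, and the ranges did not overlap. Whole ileum lay between the others, but for one of its libraries the pig is in doubt. The non-PP values rest on 45 and 82 cells, of which 93.3% and 89.0% had a UMI after thinning, against 39.3% and 38.5% in PP. Free RNA held 858 and 841 CPM of FCGR3A in non-PP of pig 1 and pig 2 and 541 and 580 CPM in PP, and its part in the gap was not tested. The gap itself was noticed in the values and has no test. CD8B T cells, at 1476 and 1763 CPM in PP and 1823 and 2543 CPM in non-PP, did not show so wide a gap.

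The receptor's signalling partners followed other lines. FCER1G and CD247 encode chains that pair with CD16. FCER1G was at 1490 and 1719 CPM in ileal and 1287 and 1339 CPM in blood natural killer-like cells, but at 38.7 and 14.9 CPM in ileal CD4 T cells, where FCGR3A was higher. The log2 difference of natural killer-like minus CD4 T cells in ileum was 5.83 (SE 0.60) for FCER1G, 5.63 (SE 0.67) for FGR and 5.03 (SE 0.56) for SYK, the last a pair of kinases. CD247 was at 541 and 490 CPM in ileal CD4 T cells and at 586 and 724 CPM in natural killer-like cells. Of the 31 list genes tested, 8 were higher and 2 lower in natural killer-like cells of ileum, where 16.5% of all genes were called. The list median was 0.10 against 0.01 over all genes. The lower ones were LAT, an adaptor of T cell receptor signals, by 2.66 (SE 0.26) and CD81 by 1.95 (SE 0.22).

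In blood 9 were higher and 2 lower, at medians of 0.52 and 0, where 9.28% of all genes were called. SYK was higher by 5.69 (SE 0.59), FCER1G by 4.34 (SE 0.55) and FGR by 4.09 (SE 0.52), and FCMR and LAT were lower by 2.36 (SE 0.54) and 1.45 (SE 0.25). Between ileal and blood natural killer-like cells 3 list genes were higher and 6 lower in ileum, where 16.7% of all genes were called. Medians were -0.29 for the list and 0.00 for all genes. CD247, the phospholipase PLCG2 and the protease ADAM10, which cleaves CD23, were higher by 1.32 (SE 0.32), 1.02 (SE 0.23) and 0.87 (SE 0.21). The kinases BLK and LYN were lower by 2.83 (SE 0.40) and 1.85 (SE 0.36), and FCRL4 gave no UMI in ileum against 7.4 and 0.44 CPM in blood (adjusted p = 0.042). These blood values of FCRL4 rest on few UMIs, most of them from pig 1.

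FCRLA passed the test between ileal and blood natural killer-like cells on 14 UMIs against 0, at least 4.23-fold higher in ileum with the floor at 3 counts over the class (adjusted p = 0.040). A UMI was seen in 0.958% of these ileal cells and in 0.988% of the deeper epithelial-like cells, or 0.342% and 0.198% after thinning, and the part of free RNA was not tested. The call was lost in 5 of 10 alternatives. Among these were removing doublets, leaving out all whole ileum, and leaving out only the library labelled whole ileum pig 1 (adjusted p = 0.11). Without that library 9 UMIs were left in ileum, all of pig 2, as PP and non-PP of pig 1 gave none. FCER1A gave 12 UMIs in ileal and 0 in blood natural killer-like cells and was not called (adjusted p = 0.21), except with no low-count filter (adjusted p = 0.0022).

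Ileal macrophage-like cells held less FCGR3A than blood monocyte-like cells, at 1570 and 1774 CPM against 4224 and 4069 CPM, with no overlap (log2 difference -1.47, SE 0.43, adjusted p = 0.012). The call was lost with either pig left out and under DESeq2 (log2 difference -1.12, adjusted p = 0.11). Of the genes described, 3 of 5 were called here, against 19.6% of all genes. FCGR1A, the high-affinity IgG receptor, moved in the same direction, at 49.2 and 76.0 CPM in ileum and 141 and 276 CPM in blood (log2 difference -1.93, SE 0.45, adjusted p = 0.0017). In dendritic-like cells of ileum FCGR3A was at 128 and 42.1 CPM, under macrophage-like cells by 4.28 on the log2 scale (SE 0.52, adjusted p = 3.0e-07), and FCGR1A gave 0 and 3.2 CPM. This comparison called 5.87% of all genes and 2 of the 5 genes described. Mast-like and macrophage-like cells were not told apart in FCGR3A (log2 difference -0.19, SE 0.43, adjusted p = 0.88).

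FCER1A was highest in mast-like cells, at 6780 and 4413 CPM in pig 1 and pig 2, and 97.8% of the 46 cells had a UMI (88.5 to 99.9%). Macrophage-like cells held 295 and 232 CPM, and the log2 difference was 3.81 (SE 0.56, adjusted p = 1.5e-05), where 9.26% of all genes were called and FCER1A was the only one of the 5 genes described. Over the 6 ileal libraries the level ran from 3565 to 6941 CPM, on 4 to 14 cells each. Of the 2454 FCER1A UMIs of ileal cells, 31.8% fell in the 46 mast-like cells. MS4A2, the beta chain of the receptor, was at 5659 and 3023 CPM and FCER1G, its gamma chain, at 1681 and 1175 CPM, so that all 3 chains of the receptor were abundant in this class.

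**Figure D4:**
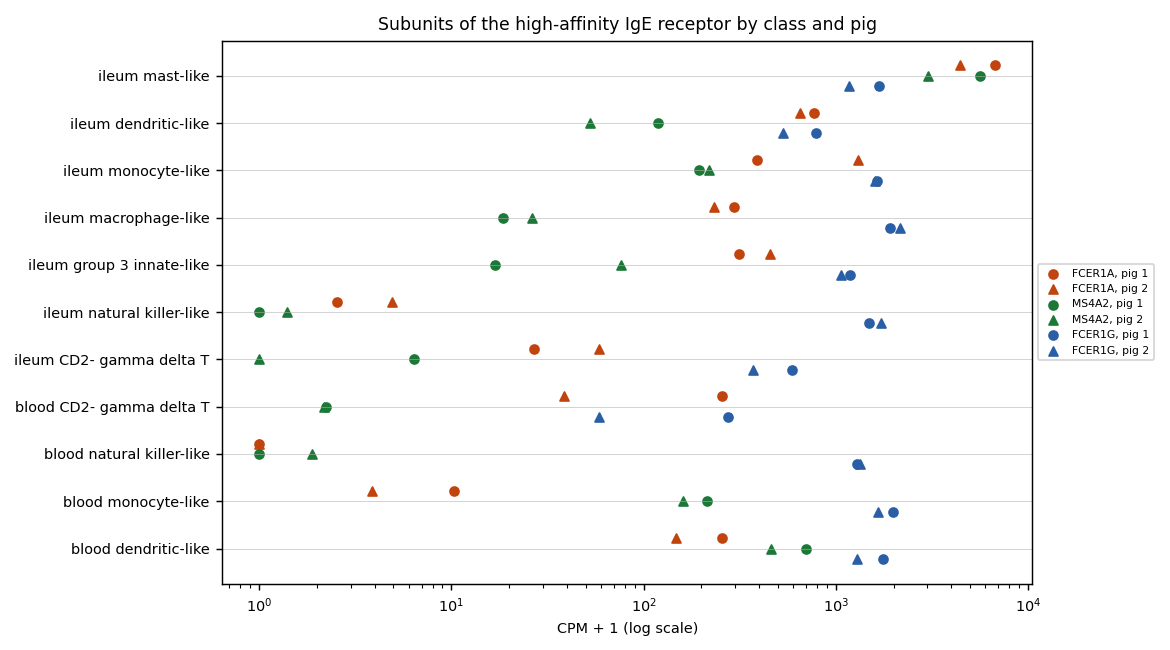
CPM + 1 (log scale) of the 3 chains of the high-affinity IgE receptor, FCER1A in red, MS4A2 in green and FCER1G in blue, with circles for pig 1 and triangles for pig 2. All 3 are high in mast-like cells, MS4A2 is low where FCER1A is present in group 3 innate-like and CD2- γδ T cells, and blood monocyte-like cells show MS4A2 and FCER1G with little FCER1A.

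Group 3 innate-like cells, lymphocytes gated on markers that included IL22, IL23R and KIT, carried FCER1A. They held 313 and 453 CPM in pig 1 and pig 2, against 1.5 and 3.9 CPM in natural killer-like cells, a log2 difference of 7.06 (SE 0.77, adjusted p = 7.2e-08), and it was the only one of the 5 genes described to be called among 10.5% of all genes. Per library the levels were 340 and 324 CPM in PP, 390 CPM in non-PP of pig 2, and 372 and 797 CPM in the libraries labelled whole ileum of pig 1 and pig 2. In non-PP of pig 1, with 9 cells, it was 56.3 CPM. A UMI was found in 43.7% of 190 cells (36.5 to 51.1%), and in 32.1% after thinning, against 0.411% of natural killer-like cells at a median of 2477 UMIs.

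The mast cell markers HDC and GATA2 stood at 4.0 and 2.8 CPM and at 0 and 2.8 CPM in group 3 innate-like cells, a class from which the gates had removed cells with 2 or more UMIs of mast markers. MS4A2 was at 15.8 and 75.1 CPM there, and FCER1A made 88.6% of the UMIs of both genes (84.3 to 92.2%), against 56.3% (53.7 to 59.0%) in mast-like cells. KIT, one of the markers of the gate, is also carried by mast cells, the gates set part of these values, and the part of mast cell RNA was not tested. MS4A2 was itself higher than in natural killer-like cells by 7.40 on the log2 scale (SE 1.22, adjusted p = 4.8e-05). FCER1G was at 1184 and 1063 CPM. The pathway list had 5 genes higher and 6 lower in this comparison, at a median of 0 against -0.12 over all genes, of which 10.5% were called. CD72 was among those higher, by 3.46 (SE 0.68), and CD247, SYK and ADAM10 were among those lower, by 3.40 (SE 0.40), 3.37 (SE 0.65) and 1.46 (SE 0.30). FCGR3A was not called between the classes (log2 difference -0.60, SE 0.44, adjusted p = 0.49), but was with sums per library (-1.13, adjusted p = 0.025).

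Dendritic-like cells of ileum held 769 and 651 CPM of FCER1A, above macrophage-like cells in each pig, but the difference of 1.46 (SE 0.54) was not called (adjusted p = 0.13), though it was with sums per library (adjusted p = 0.019), with no low-count filter (adjusted p = 1.1e-06) and with only the groups compared (adjusted p = 0.0018). The 32 ileal monocyte-like cells held 387 and 1304 CPM. Ileal macrophage-like cells exceeded blood monocyte-like cells, at 9.3 and 2.9 CPM, by 5.56 on the log2 scale (SE 0.68, adjusted p = 3.7e-07). Macrophage-like values spread widely between libraries, from 0 CPM in whole ileum of pig 2 to 1106 CPM in non-PP pig 2 with 6 cells. The 139 UMIs of the class came from 11% of its 100 cells (5.62 to 18.8%), so that few cells carried the value. MS4A2 was at 17.6 and 25.3 CPM in these cells.

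Blood monocyte-like cells showed the opposite pairing of chains. MS4A2 was at 212 and 160 CPM on 1811 UMIs, and FCER1A made 2.48% of the UMIs of the pair (1.82 to 3.29%). MS4A2 was called lower in ileal macrophage-like than in blood monocyte-like cells by 3.29 on the log2 scale (SE 0.68, adjusted p = 4.7e-04), while FCER1A was higher. Ileal monocyte-like cells, at 194 and 219 CPM, lay near blood in MS4A2 and above it in FCER1A. Blood dendritic-like cells held 700 and 460 CPM of MS4A2 and 255 and 146 CPM of FCER1A.

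FCER1A was also found in blood CD2- γδ T cells, a T cell subset abundant in pigs. They held 254 CPM in pig 1 and 37.4 CPM in pig 2, and CD2+ γδ T cells of blood 11.4 and 7.4 CPM. The subset exceeded CD2+ cells in each pig but varied between pigs by more than its lower value. A UMI was seen in 28.8% of the 292 cells of pig 1 and in 2.94% of the 340 cells of pig 2 after thinning. In ileum the same subset held 26.0 and 57.6 CPM, with 24.3 to 62.1 CPM over the 6 libraries, and CD2+ cells 8.0 and 3.0 CPM. MS4A2 gave 2 UMIs in blood CD2- γδ T cells against 240 of FCER1A, and FCER1G was at 273 and 57.3 CPM. These values were noticed in the data and have no test. Of the 240, 208 were from pig 1 and 32 from pig 2. Blood natural killer-like cells gave none in 1259 cells, which allows up to 0.238% of cells with a UMI by the floor of 3 counts.

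The pathway list in the myeloid comparisons held 9 higher and 7 lower genes in ileal macrophage-like against blood monocyte-like cells. Of all genes 19.6% were called there, and medians were 0.01 for the list and -0.16 for all genes. CD72 and CD22, inhibitory receptors known from B cells, were higher in macrophage-like cells by 4.60 (SE 0.54) and 2.78 (SE 0.54) on the log2 scale, PIGR rested on 2 UMIs, and SYK was lower by 2.07 (SE 0.62). Dendritic-like cells had none higher and 5 lower than macrophage-like cells, among them CD22, with no UMI in dendritic-like cells, FCGR1A, and FCER1G by 1.59 (SE 0.49). The median was -0.49 against 0, and 5.87% of all genes were called. Mast-like cells had 3 higher, MS4A2 by 7.09 (SE 0.64), LAT by 2.77 (SE 0.39) and BTK by 2.49 (SE 0.49), and 7 lower. The median was -0.64 against -0.26, and 9.26% of all genes were called. CD72, FCGR1A and BLNK gave no UMI in mast-like cells.

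**Figure D5:**
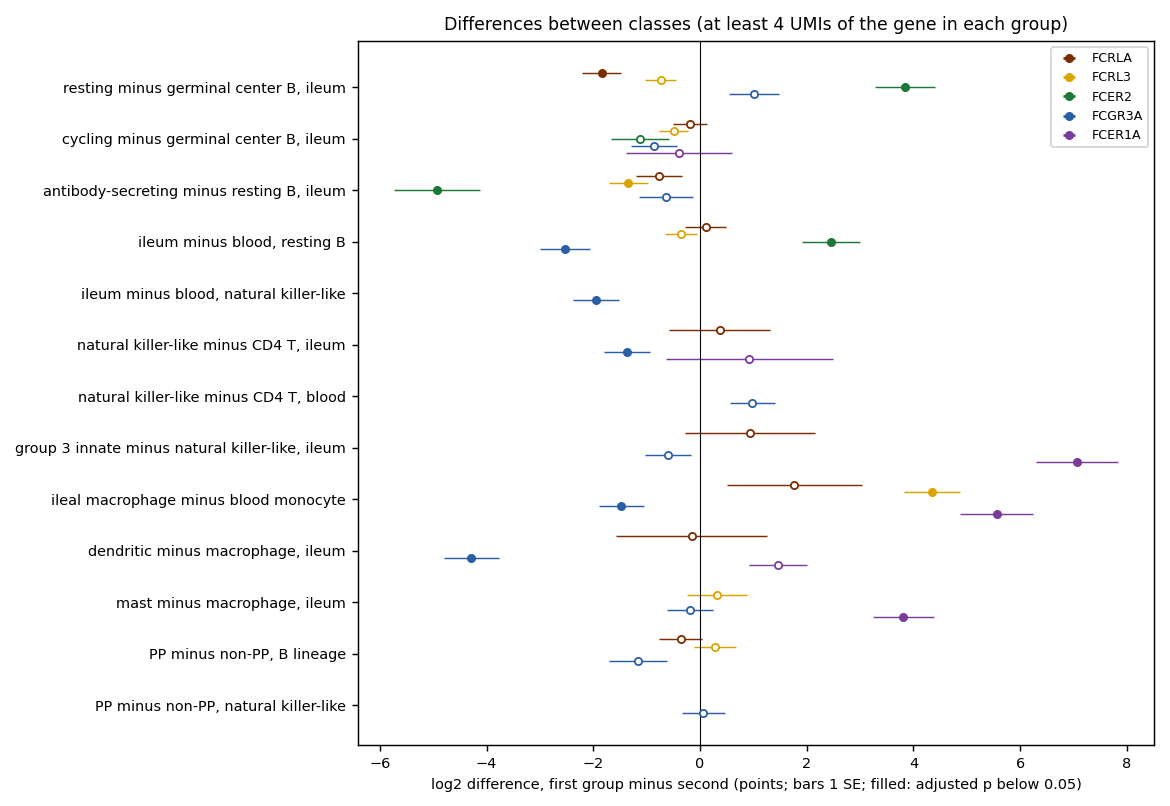
Log2 differences (first group minus second, bars 1 SE from edgeR) of the genes described in each comparison where both groups held at least 4 UMIs. Filled points passed an adjusted p below 0.05. FCER2 is higher in ileal resting B cells than in each class or tissue compared with them, FCER1A is higher in group 3 innate-like and mast-like cells, and FCGR3A is lower in ileal than in blood resting B and natural killer-like cells and in ileal macrophage-like than in blood monocyte-like cells.

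Between tissue with and without Peyer's patches, cycling, germinal center, resting and unclassed B cells were compared together. They numbered 3894 and 3726 cells in PP and 27 and 52 cells in non-PP of pig 1 and pig 2. The states were not mixed alike, with 306 and 187 resting cells in PP and 5 and 0 in non-PP. Cycling cells, 1926 and 1835 in PP and 14 and 31 in non-PP, reached 10 per library but were not compared alone. FCRLA was at 176 and 215 CPM in PP and at 295 and 269 CPM in non-PP, without overlap but not called (log2 difference -0.36, SE 0.41, adjusted p = 0.997). FCRL3 at 87.0 and 94.1 CPM in PP fell inside the non-PP range of 47.9 and 106 CPM. FCER2, at 13.1 and 8.0 CPM in PP and on 1 UMI per library in non-PP, was too low to be tested, and FCGR3A at 28.6 and 24.5 against 71.9 and 61.8 CPM was not called (adjusted p = 0.98), beside 541 and 580 CPM of it in free RNA of PP and 858 and 841 CPM of non-PP. At this number of non-PP cells, edgeR called 0.0744% of all genes, 6 in all against 404 at an unadjusted p under 0.05, and none of the list.

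Natural killer-like cells of PP and non-PP held 1374 and 930 CPM and 1754 and 361 CPM of FCGR3A, so that the non-PP range enclosed the PP range. The test called 0.0496% of all genes, 4 in all against 348 at an unadjusted p under 0.05, and none of the genes described or of the list. FCER1A gave 9 UMIs in PP and 1 in non-PP, all in pig 2, and was not called (adjusted p = 0.92), except with no low-count filter (adjusted p = 4.2e-04).

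Over the 52 sums of pig, tissue and class, the genes most like each of these in log2(CPM + 1) were named by Pearson's r among 11213 genes with a symbol. They were TNFRSF13C (r = 0.85), BLNK (0.84) and MEF2C (0.83) for FCRLA, MS4A1 (0.81), FCRL1 (0.80) and DYRK3 (0.79) for FCRL3, and ATP6V1C2 (0.87), SNCB (0.83) and PELI3 (0.79) for FCER2. For FCGR3A they were MAP7D1 (0.80), AOAH (0.77) and TAX1BP1 (0.76), and for FCER1A FXYD6 (0.81), MS4A2 (0.81) and GNG11 (0.80). The sums share pigs and libraries, and these values are a description.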

How the data were processed

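Cells of the ileum (PP, non-PP and whole ileum) and PBMC of 2 pigs were measured with 10X Chromium 3′ chemistry, in 8 libraries of 4 sequencing runs each, which were taken as 1 library. The authors deposited UMI counts, untouched by normalization, from Cell Ranger (4.0.6 in the submitters' processing notes) run against Sus scrofa 11.1 with a gene annotation they had altered. Each library holds 737280 barcodes, as they stood before the authors' removal of free RNA, poor cells and doublets. Cells with at least 1250 UMIs, at least 550 genes and at most 12.5% mitochondrial UMIs were kept, and thinned shares use 1250 UMIs per cell. No per-sample column was left unmapped. Of 25880 entries 7159 had no symbol, and 19 took one from the study's name table.

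Cells were gated on UMI sums of fixed marker genes. The least numbers of UMIs were set after the data had been seen, and the members and lists were chosen with earlier results of these data known. B classes needed at least 3 B lineage UMIs and, for resting cells, 2 of the resting markers and none of germinal center markers. Natural killer-like cells needed 3 UMIs of their markers, 1 of CD2 and none of CD3E, CD4, CD8B or TRDC. CD3D and CD3G were not limited in this class. Over both tissues it held a median of 4 UMIs of CD3E, CD3D and CD3G together, and whether it includes T cells was not tested. Classes of at least 10 cells in each pig entered 1 fit of 52 sums with edgeR 4.0.16 (TMM, filterByExpr, quasi-likelihood test) in R 4.3.3, leaving 10633 genes, and PP and non-PP were compared in a fit of sums per library and class with 8068 genes. Of the partner list, the called genes with the 3 largest differences in each direction are named. Partner levels in other classes were added after the values were seen. Doublets were scored with Scrublet (scanpy 1.11.5, expected rate 0.07) and 2.75 to 3.93% of cells per library exceeded a score of 0.25, which were kept.

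Same-numbered samples come from the same animal, except that the library labelled whole ileum pig 1 goes against its label. The correlation across genes of the pigs' deviations between the 2 groups compared ranged from 0.0086 to 0.54 over 13 comparisons. In the main fits p-values rest on the spread between the 2 labelled pigs of each class, shared over all classes of a fit and over genes. Sums of the same pig were treated as independent. No p-value covers variation beyond these 2 pigs.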

Additional observations from a re-analysis of the deposited data

Results flagged for a closer look

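The difference of FCGR3A between natural killer-like and CD4 T cells was compared between ileum and blood after the values were seen. The p-value of this interaction does not cover that choice. The interaction was -2.34 on the log2 scale (SE 0.60, edgeR adjusted p = 0.020), with natural killer-like cells lower in 5 of 6 ileal libraries and higher in both blood libraries. It was not past the threshold without the library labelled whole ileum pig 1 (-1.56, adjusted p = 0.41). Without that library the summed natural killer-like cells of ileal pig 1 lay above its CD4 T cells. No group held enough samples for a search for single samples that stand apart.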

How the results depend on the processing

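Of 17 differences of the genes described that were called, 7 stayed called in every alternative, 10 lost the call in at least 1 and 0 turned direction. Of 51 that were not called, 10 gained a call in at least 1 alternative, and 35 values of uncalled differences took the other sign and stayed uncalled. In the counts of these genes called, DESeq2 gave 1 for resting against germinal center, 1 for antibody-secreting against resting and 1 for ileal against blood resting B cells, where edgeR gave 2 each, and 0 for natural killer-like against CD4 T cells in ileum, where edgeR gave 1. With no low-count filter 1 was called for cycling against germinal center B cells, 1 for natural killer-like against CD4 T cells in blood and 1 for PP against non-PP natural killer-like cells, where the main counts were 0. With only the groups compared, 1 was called for the first 2 of these and 1 in place of 2 for ileal against blood natural killer-like cells, where FCRLA could not be fitted. Sums per library called 2 for cycling against germinal center cells and 2 in place of 1 for group 3 innate-like against natural killer-like cells. Removing doublets left 1 of 2 for ileal against blood natural killer-like cells. Without the library labelled whole ileum pig 1, and without whole ileum altogether, the count was 0 for ileal against blood natural killer-like cells, 0 for natural killer-like against CD4 T cells in ileum and 0 for the difference between tissues. Leaving out a pig gave 1 to 2 for resting against germinal center, 1 to 2 for antibody-secreting against resting, 1 to 1 for ileal against blood resting B cells, 0 to 1 for ileal against blood natural killer-like cells, 0 to 1 for natural killer-like against CD4 T cells in ileum and 0 to 0 for the difference between tissues. For any of these changes the cause was not tested beyond the samples and genes that the alternatives drop.

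The pig as a replicate block added a call for FCRL3 between resting and germinal center B cells (log2 difference -0.75, adjusted p = 0.019) and changed no other call of these genes. It moved the genes called between cycling and germinal center B cells from 999 to 1763, and no other such count by over 1.5 times.

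Genes called over all genes varied more. They ran over the alternatives from 616 to 2302 against 1814 for resting against germinal center, from 309 to 2162 against 999 for cycling against germinal center, from 1076 to 2770 against 2362 for antibody-secreting against resting, and from 468 to 1670 against 1278 for ileal against blood resting B cells. For natural killer-like cells they ran from 550 to 2274 against 1780 between ileum and blood, from 508 to 2304 against 1755 and from 219 to 1278 against 987 relative to CD4 T cells of ileum and blood, and from 290 to 1441 against 1116 relative to group 3 innate-like cells. For macrophage-like cells they ran from 769 to 2303 against 2088, from 208 to 827 against 624 and from 330 to 1091 against 985 relative to monocyte-like, dendritic-like and mast-like cells. The interaction gave 22 to 506 against 362, and PP against non-PP 0 to 23 against 6 in B cells and 0 to 26 against 4 in natural killer-like cells. With DESeq2 the median log2 difference of all genes went from -0.16 to 0.19 for macrophage-like against monocyte-like cells, from -0.26 to 0 for mast-like against macrophage-like cells and from 0.22 to -0.10 for PP against non-PP B cells.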
